A study of Mus musculus with 8 samples.

Results

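The genes described here are 10 developmental transcription factors with a known link to bone morphogenetic protein (BMP) signalling: *Cdx2*, *Gata2*, *Gata3*, *Tbx2*, *Tbx3*, *Hand1*, *Hand2*, *Tfap2a*, *Dlx5* and *Dlx6*. They were listed by symbol, 10 of 25239 genes in the count files, as factors of mesoderm and extraembryonic lineages known to respond to BMP. The list was drawn up with earlier results of these data known, so the choice of genes was not blind to these data. *Cdx2* was chosen by its measured fall in these *Bmpr1a*-cKO ovaries. Its difference between genotypes is therefore given as a description with no test. Of the 10 genes, 8 had enough reads to enter the comparison of 14249 genes, and *Dlx5* and *Dlx6* did not.

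RNA-Seq was conducted on whole ovaries of E14.5 mouse embryos, with 4 control and 4 *Bmpr1a*-cKO libraries, each from a pool of 2 ovary pairs. Control embryos were *Bmpr1a* fl/fl and cKO embryos were *Bmpr1a* fl/fl littermates that also carried the Oct4-Cre allele, all on C57BL/6 and drawn from 6 litters. The *Bmpr1a* fl/fl dams, which carried embryos of both genotypes, received 1 mg of 4-hydroxytamoxifen and 0.5 mg of progesterone at E9.5, E10.5 and again at E11.5, which activates the Cre recombinase in germ cells, so the somatic cells of a cKO ovary keep *Bmpr1a*. Since the cKO embryos alone carried Oct4-Cre, its presence and the loss of *Bmpr1a* cannot be told apart, and the litter behind each library is not given in the sources used here.

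BMP ligands bind pairs of type I and type II receptors at the cell surface, BMPR1A being a type I receptor, and the active receptor phosphorylates SMAD1, SMAD5 and SMAD9, which enter the nucleus with SMAD4. In early embryos this signal induces transcription factors of posterior mesoderm, amnion and trophoblast, among them members of the CDX, GATA, T-box, HAND, AP-2 and DLX families. In the fetal ovary BMP2 comes from somatic cells and acts on germ cells as they leave mitosis for meiosis.

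Depth ranged from 8562961 to 15365052 counts per library. Levels are given below as CPM (reads per 1000000 reads of the library) on library sizes scaled by the trimmed mean of M values (TMM), and a gene was called when its Log2FC (cKO over control) passed 0.5 in either direction with a false discovery rate (FDR) below 0.05 in edgeR's quasi-likelihood test. *Bmpr1a* itself, counted over the whole gene, stood at 218 ± 15.3 CPM in control and 195 ± 10.5 CPM in cKO ovaries (SD, n = 4), a Log2FC of -0.16 that was not called (FDR 0.0692), so these counts alone do not check the labels. All 6 germ cell markers and all 6 pregranulosa markers examined were detected. Because each library is a bulk sample, fewer cells of a type and less RNA per cell cannot be told apart.

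The region just upstream of the transcription start was at hand for 5 of the 10 genes in RefSeq (GRCm38.p6), and 4 such windows are shown because they belong to the genes with the largest falls at a well-covered level, *Cdx2* and *Gata2*, and to *Gata3*, which differed less, and *Hand2*, which was not called. Each runs 5′ to 3′ on the strand of its gene and ends at the annotated start. The *Cdx2* window (chr5:147307271-147307499, minus strand) is printed over 229 bases, since the remaining 21 of its 250 bases lie in a GENCODE exon. Those of *Gata2* (chr6:88193641-88193890, plus strand), *Gata3* (chr2:9878601-9878850, minus strand) and *Hand2* (chr8:57320733-57320982, plus strand) are given in full, and capitals mark the octamer ATGCAAAT bound by POU factors and the GC-rich SMAD element GGCGCC.
Cdx2: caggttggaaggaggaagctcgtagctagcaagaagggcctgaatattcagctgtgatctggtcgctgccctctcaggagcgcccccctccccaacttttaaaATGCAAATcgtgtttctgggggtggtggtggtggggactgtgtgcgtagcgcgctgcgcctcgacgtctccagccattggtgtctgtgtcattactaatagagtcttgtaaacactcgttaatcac
Gata2: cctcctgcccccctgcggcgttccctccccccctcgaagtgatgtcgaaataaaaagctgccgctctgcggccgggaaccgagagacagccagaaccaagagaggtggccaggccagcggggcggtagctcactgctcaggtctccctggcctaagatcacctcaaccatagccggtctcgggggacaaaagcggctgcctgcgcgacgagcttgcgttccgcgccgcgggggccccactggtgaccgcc
Gata3: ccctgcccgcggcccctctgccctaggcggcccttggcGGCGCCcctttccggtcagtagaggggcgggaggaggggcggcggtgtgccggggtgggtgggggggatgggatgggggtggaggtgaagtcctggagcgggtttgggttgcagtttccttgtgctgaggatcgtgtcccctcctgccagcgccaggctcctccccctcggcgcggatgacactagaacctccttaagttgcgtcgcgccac
Hand2: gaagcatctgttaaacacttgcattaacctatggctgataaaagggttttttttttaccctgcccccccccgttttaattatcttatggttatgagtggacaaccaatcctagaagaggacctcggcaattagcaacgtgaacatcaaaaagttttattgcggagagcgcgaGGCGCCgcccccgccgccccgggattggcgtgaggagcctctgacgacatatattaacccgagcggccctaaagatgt

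The octamer, added to the search after the values were seen, occurred once in the *Cdx2* window, with its far end 147 bases upstream of the RefSeq start, and in 1.60% of 32841 upstream windows of 250 bases. GGCGCC occurred in the *Gata3* and *Hand2* windows and in 9.59% of all windows, and was present in neither the *Cdx2* window nor the *Gata2* window shown. A second RefSeq window of *Gata2* (chr6:88198414-88198663), not printed because it lies wholly in a GENCODE exon, held GGCGCC once, 38 bases upstream of its start. *Tfap2a* had 2 windows, of which 1 held TTTATG and the other none of the motifs. In the 4 windows shown, the GATA motif AGATAA was found once in the *Hand2* window (9.99% of all windows), whereas the palindrome GTCTAGAC (0.167%) and the CDX motif TTTATG (10.8%) were absent. Both strands were searched, no motif overlapped another in these windows, and a match describes letters and not a bound site. G and C made up 55.2% of the *Cdx2* window, 67.2% of that of *Gata2*, 70.0% of that of *Gata3* and 49.2% of that of *Hand2*, against a median of 52.4% over all windows.

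*Cdx2* (chr5:147300805-147307270) encodes a caudal-type homeobox factor of trophectoderm and of the posterior embryo and intestine. It stood at 14.7, 17.4, 25.4 and 11.3 CPM in control libraries 1 to 4 and at 2.86, 3.35, 4.40 and 3.0 CPM in cKO libraries 1 to 4. Every cKO library lay below every control library, the mean going from 17.2 ± 6.00 to 3.40 ± 0.694 CPM (SD, n = 4), or 19.8% of control. The Log2FC was -2.33 with a standard error (SE) of 0.23, the 10th largest fall among the 14249 genes compared. This rank restates the choice of *Cdx2* by its fall. The message was not lost, since 24 to 45 reads remained in each cKO library. Without control library 3, the highest, the Log2FC was -2.09, and without control library 4, the lowest, it was -2.50. The nearest annotated protein-coding gene, *Urad*, had 2 reads in the control libraries together and 0 in the cKO libraries. Of the remaining CDX genes, *Cdx1* was at 2.25 ± 0.639 CPM in control and 1.75 ± 0.649 CPM in cKO ovaries and was not called (Log2FC -0.39, FDR 0.318), and *Cdx4* had no read in any library.

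**Figure D1:**
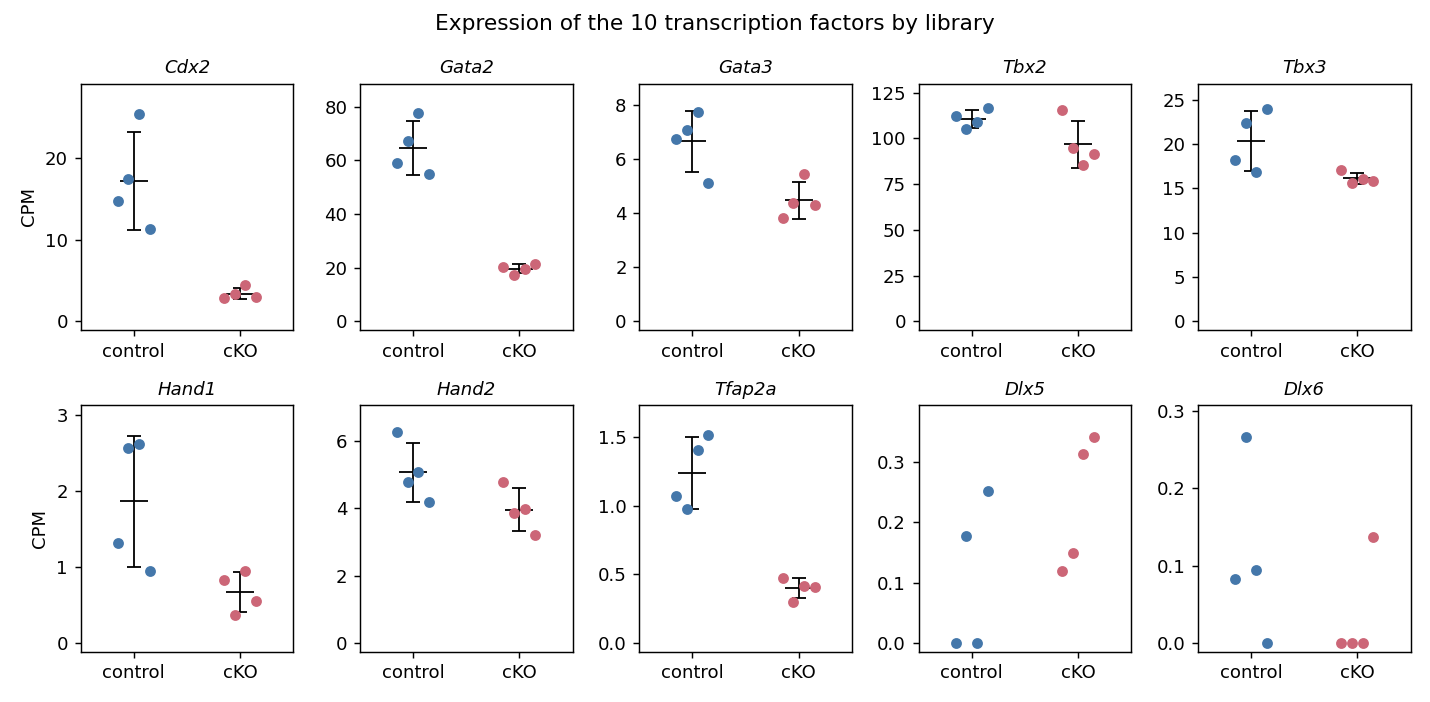
CPM of each of the 10 genes in the 4 control (blue) and 4 *Bmpr1a*-cKO (red) libraries, each panel with its own axis. Black marks give the mean and SD over 4 libraries, and are left out for *Dlx5* and *Dlx6*, which had 0 to 5 counts per library. The genotypes do not overlap for *Cdx2*, *Gata2*, *Hand1* and *Tfap2a*.

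*Gata2* and *Gata3* encode zinc-finger factors that bind the same GATA core, with known roles in blood progenitors and trophoblast, and both fell in cKO ovaries, *Gata2* by the larger Log2FC. *Gata2* (chr6:88193891-88207032) measured 59.0, 67.0, 77.5 and 55.1 CPM in control libraries and 20.4, 17.4, 19.5 and 21.4 CPM in cKO libraries. The groups were far apart, with means of 64.7 ± 9.93 and 19.7 ± 1.69 CPM (SD, n = 4), 30.4% of control. This Log2FC of -1.71 (SE 0.11, FDR 4.07e-08) was the 42nd largest fall of all genes compared, and it stayed between -1.79 and -1.62 when each library was left out in turn.

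*Gata3* (chr2:9857078-9890034) was lower in abundance, at 6.74, 7.08, 7.77 and 5.11 CPM in control and 3.82, 4.39, 5.44 and 4.30 CPM in cKO libraries. Control library 4 lay below cKO library 3, so the groups overlapped. The mean went from 6.68 ± 1.13 to 4.49 ± 0.686 CPM (SD, n = 4), a Log2FC of -0.56 (SE 0.17, FDR 0.0192) just past the fold threshold. The call was lost without control library 3 (Log2FC -0.49, FDR 0.0515), without cKO library 2 (FDR 0.0543) or without cKO library 4 (FDR 0.0504). It was also lost when libraries were scaled to germ cell markers (Log2FC -0.61, FDR 0.165, the range over 10 alternatives being 0.00729 to 0.165). *4930412O13Rik* and *9230102O04Rik* lie within *Gata3*, the former on the opposite strand, and their own counts summed to 46 and 2 in control and to 8 and 0 in cKO libraries. Whether reads were counted by strand is not given, and without strand the reads of a gene and its antisense partner cannot be told apart.

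Whether the 2 GATA genes changed to unequal extents was examined as a count ratio within each library, which does not depend on scaling. *Gata2* had 8.74, 9.46, 9.98 and 10.8 reads per *Gata3* read in control libraries, against 5.34, 3.97, 3.58 and 4.97 in cKO libraries. The ratio was lower in all 4 cKO libraries, by 1.14 on the log2 scale (exact permutation test, two-sided, p = 0.0286, adjusted over 3 ratios 0.0857), so the difference did not pass after adjustment. With 4 against 4 libraries 0.0286 is the smallest p allowed. The 3 ratios, between *Gata2* and *Gata3*, *Tbx2* and *Tbx3*, and *Hand1* and *Hand2*, were chosen after the values were seen. Among the GATA genes outside the list, *Gata4*, a factor of ovarian somatic cells, stood at 315 ± 16.3 CPM in control and 279 ± 32.2 CPM in cKO ovaries (Log2FC -0.18, FDR 0.0901). *Gata1*, *Gata5* and *Gata6* were not called either.

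*Tfap2a* (chr13:40715302-40738376) encodes AP-2 alpha, a factor of surface ectoderm, neural crest and trophoblast. It was scarce, with 13, 11, 15 and 24 reads in control and 4, 4, 4 and 6 reads in cKO libraries. These correspond to 1.07, 0.974, 1.40 and 1.51 CPM and to 0.477, 0.297, 0.419 and 0.409 CPM, with no overlap between genotypes. The mean fell from 1.24 ± 0.260 to 0.401 ± 0.0750 CPM (SD, n = 4), a Log2FC of -1.65 (SE 0.33, FDR 0.00145). No cKO library reached 10 reads, so the gene entered the comparison through its control libraries alone and would have been left out had the controls been as low. *Gm26688*, which overlaps it on the opposite strand, had 0 reads throughout. *Gcnt2*, the next gene on the side of higher coordinates at 121378 bases, moved the other way, from 8.55 ± 2.02 to 22.3 ± 2.36 CPM (Log2FC 1.41, FDR 3.91e-06).

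*Hand1* and *Hand2* encode basic helix-loop-helix factors, *Hand1* of trophoblast giant cells, lateral mesoderm and heart, and *Hand2* of heart, limb and sympathetic neurons. *Hand1* (chr11:57828705-57832818) gave 16, 29, 28 and 15 reads in control and 7, 5, 9 and 8 reads in cKO libraries. In CPM these are 1.32, 2.57, 2.62 and 0.947 against 0.835, 0.372, 0.942 and 0.546. The genotypes did not overlap, but only barely, since the lowest control and the highest cKO library were all but level. The mean went from 1.86 ± 0.859 to 0.674 ± 0.262 CPM (SD, n = 4), a Log2FC of -1.48 (SE 0.40, FDR 0.0113), and the FDR ran from 0.00365 to 0.0496 with each library left out, the latter without cKO library 2. Like *Tfap2a*, *Hand1* reached 10 reads in every control library and in no cKO library.

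*Hand2* (chr8:57320983-57324633) was at 6.25, 4.78, 5.06 and 4.17 CPM in control and at 4.77, 3.87, 3.98 and 3.21 CPM in cKO libraries. The groups overlapped, and the difference of -0.37 in Log2FC (SE 0.18, FDR 0.131) was not called, the means being 5.06 ± 0.874 and 3.96 ± 0.641 CPM (SD, n = 4). Its antisense partner *Hand2os1* had 21 reads in all control and 18 in all cKO libraries. The reads of *Hand1* per read of *Hand2* ran from 0.211 to 0.537 in control and from 0.0962 to 0.237 in cKO libraries. These ranges overlapped (log2 difference -1.07, exact permutation test, two-sided, p = 0.0857, adjusted 0.129), so an unequal change of the 2 HAND genes was not shown.

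*Tbx2* and *Tbx3* encode T-box repressors of limb, heart and mammary development, and neither was called. *Tbx2* (chr11:85832551-85841948), the most abundant of the 10 genes, measured 112, 105, 109 and 117 CPM in control and 115, 95.0, 85.5 and 91.5 CPM in cKO libraries. The cKO library 1 lay among the controls while the other cKO libraries lay below them. The means were 111 ± 4.86 and 96.8 ± 12.9 CPM (SD, n = 4), with a Log2FC of -0.20 (SE 0.080, FDR 0.0765).

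*Tbx3* (chr5:119670669-119684724) stood at 18.2, 22.4, 16.9 and 24.0 CPM in control and at 17.0, 15.6, 16.0 and 15.9 CPM in cKO libraries. The control libraries were spread out and the cKO libraries lay close together, 3 of them below every control library and cKO library 1 within the control range. Its Log2FC of -0.35 (SE 0.11, FDR 0.0280) had an FDR under the threshold but not the fold required, the means being 20.4 ± 3.38 and 16.1 ± 0.626 CPM (SD, n = 4). *Tbx2* reads per *Tbx3* read were 4.69 to 6.46 in control and 5.34 to 6.76 in cKO libraries (log2 difference 0.12, exact permutation test, two-sided, p = 0.40, adjusted 0.40). *Tbx4*, which lies 44474 bases from *Tbx2*, rose instead, from 9.04 ± 2.60 to 20.5 ± 3.26 CPM (SD, n = 4; Log2FC 1.21, FDR 7.24e-05), with every cKO library above every control library. *Tbx4* and *Gcnt2* were the 2 genes called among 9 compared of the 19 nearest annotated genes on either side of the 10 factors. The other 7 (*Rpn1*, *2610027K06Rik*, *Sap30l*, *Larp1*, *Fbxo8*, *Sdhaf3* and *Sem1*) were not called, with Log2FC from -0.19 to 0.22.

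*Dlx5* (chr6:6877805-6882085) and *Dlx6* (chr6:6863334-6868568) encode distal-less homeobox factors of jaw, limb and bone. *Dlx5* had 0, 2, 0 and 4 reads in control and 1, 2, 3 and 5 in cKO libraries, and *Dlx6* had 1, 3, 1 and 0 reads in control and 0, 0, 0 and 2 in cKO libraries. Both were at or near 0 in every library, and a difference was not detectable at this depth, where 3 reads amount to 0.189 to 0.358 CPM. Among the other DLX genes, *Dlx3*, a factor of placenta and epidermis, went from 15.8 ± 3.91 to 3.85 ± 0.721 CPM (SD, n = 4). Its values of 13.0, 16.6, 21.0 and 12.6 CPM in control and 3.70, 2.97, 4.71 and 4.03 CPM in cKO libraries did not overlap (Log2FC -2.03, SE 0.19, FDR 1.81e-06).

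Of the 9 factors other than *Cdx2*, 7 were compared, of which *Gata2*, *Gata3*, *Hand1* and *Tfap2a* were called lower in cKO ovaries, 0 were called higher and 3 were not called. No gene of the 7 was higher even at an unadjusted p under 0.05 in edgeR, and DESeq2 and limma-voom called 0 higher as well. Of all genes compared, 10.2% were called, 4.06% lower and 6.11% higher. Every cKO library lay below every control library for 3 of the 7, *Gata2*, *Hand1* and *Tfap2a*, as for 11.7% of all genes compared, and genotypes did not overlap in either direction for 27.9%. The median Log2FC of the 7 was -0.56 and that of all genes was -0.0042. *Hand1* and *Tfap2a* could enter only through the control libraries, and the genes were listed with earlier results of these data known. This count therefore describes the genes and supports no statement on factors of this kind. With at least 10 reads required in every library, a filter added after the values were seen, 2 of the 9 were called lower, *Gata2* and *Gata3*.

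**Figure D2:**
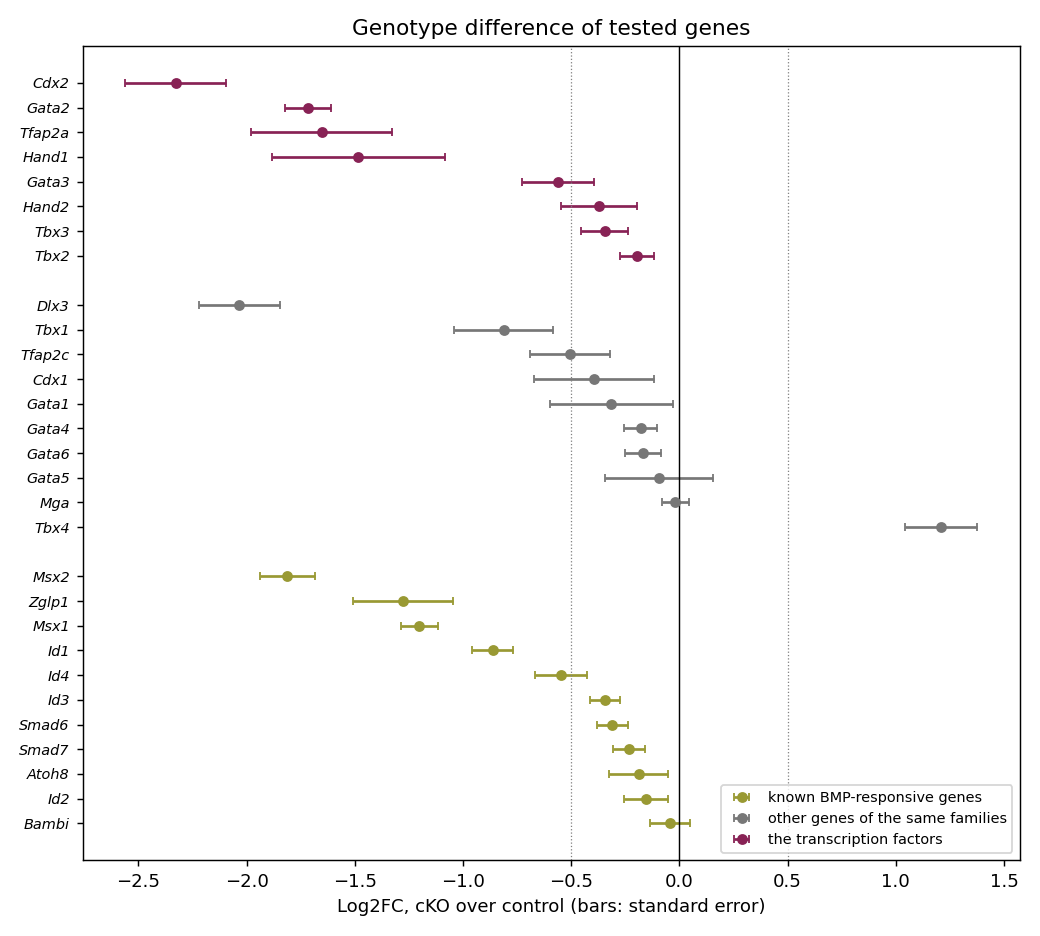
Log2FC of cKO over control (horizontal axis) with its SE for the 8 factors compared (purple), other genes of the same families (grey) and genes known to respond to BMP (olive). Dotted lines mark a Log2FC of 0.5 in either direction. *Cdx2* (chosen by its fall), *Dlx3* and *Msx2* lie farthest to the left, and *Tbx4* is the gene past the line on the right.

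Levels of different genes were compared as RPKM, that is CPM per 1000 bases of exon. In control ovaries the order was *Tbx2* at 30.5, *Gata2* at 12.0, *Cdx2* at 7.61, *Tbx3* at 3.07, *Hand2* at 2.15, *Gata3* at 1.68, *Hand1* at 0.933 and *Tfap2a* at 0.253 RPKM, with *Dlx5* and *Dlx6* below 0.1. *Tbx2* stood clear of *Gata2*, *Cdx2* of *Tbx3*, *Hand1* of *Tfap2a* and *Tfap2a* of *Dlx5*. The ranges of the other neighbouring pairs overlapped, so that 4 of 9 neighbours were apart. In cKO ovaries *Cdx2*, at 1.5 RPKM, came after *Tbx3* and *Hand2* and overlapped in range with *Hand2* and *Gata3*.

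**Figure D3:**
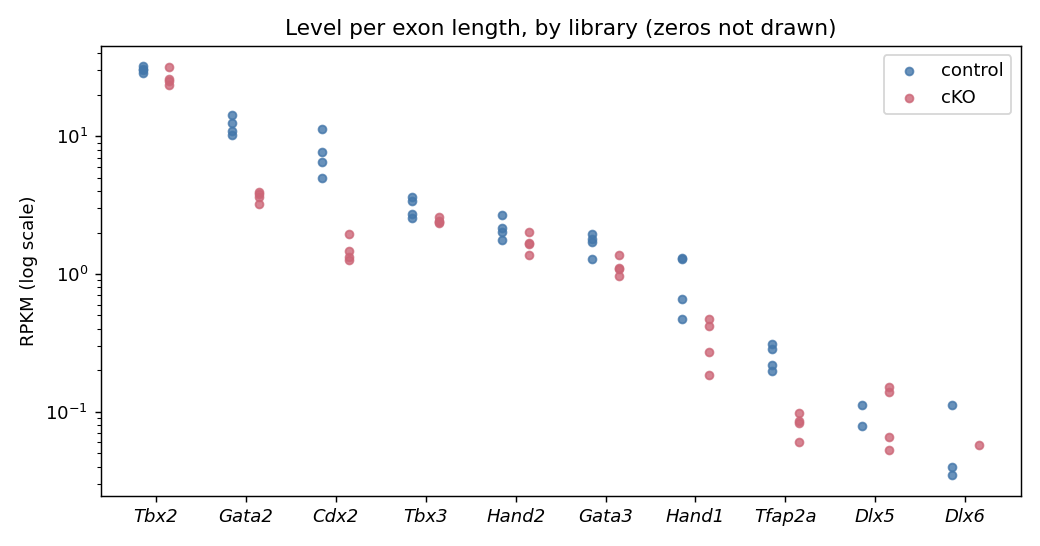
RPKM (log axis) of each gene in control (blue) and *Bmpr1a*-cKO (red) libraries, each point a library, in the order of control means. *Cdx2* lies below *Gata2* in each control library and overlaps with *Hand2* and *Gata3* in cKO ovaries. Libraries with 0 reads are not drawn.

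The control libraries differed among themselves more for some factors than for others. *Cdx2* had a coefficient of variation (CV) of 34.9% over the 4 control libraries, where counting error alone would give 6.96%, and *Hand1* had 46.1% where counting error would give 21.3%. *Cdx2*, *Gata2*, *Gata3* and *Hand1* were each highest in control library 3 and lowest in control library 4. When libraries were scaled to the geometric mean of 6 germ cell markers instead of by TMM, the control CV went from 15.4 to 2.55% for *Gata2*, from 34.9 to 18.4% for *Cdx2*, from 16.9 to 8.41% for *Gata3* and from 46.1 to 33.0% for *Hand1*. It went the other way for *Tbx2* (4.40 to 20.5%), *Tbx3* (16.6 to 29.2%), *Hand2* (17.3 to 23.9%) and *Tfap2a* (20.9 to 30.8%). The cKO libraries did not show the same narrowing. Their CV went up for *Gata2* (8.59 to 21.0%) and *Hand1* (38.8 to 48.7%). It stayed level for *Cdx2* (20.4% on both scales) and *Gata3* (15.3 and 15.2%). For *Tbx2*, *Tbx3*, *Hand2* and *Tfap2a* the cKO CV was also higher under the germ cell scaling. On this scale *Gata2* read 65.5, 62.7, 64.5 and 66.6 in control and 25.8, 16.6, 18.4 and 18.0 in cKO libraries. The genotypes then no longer overlapped for *Gata3*, and *Cdx2* in cKO ovaries was at 20% of control. These spreads are descriptions over 4 libraries, and 3 of the 6 markers used for the scaling, *Dazl*, *Dnd1* and *Mael*, themselves differed between genotypes.

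**Figure D4:**
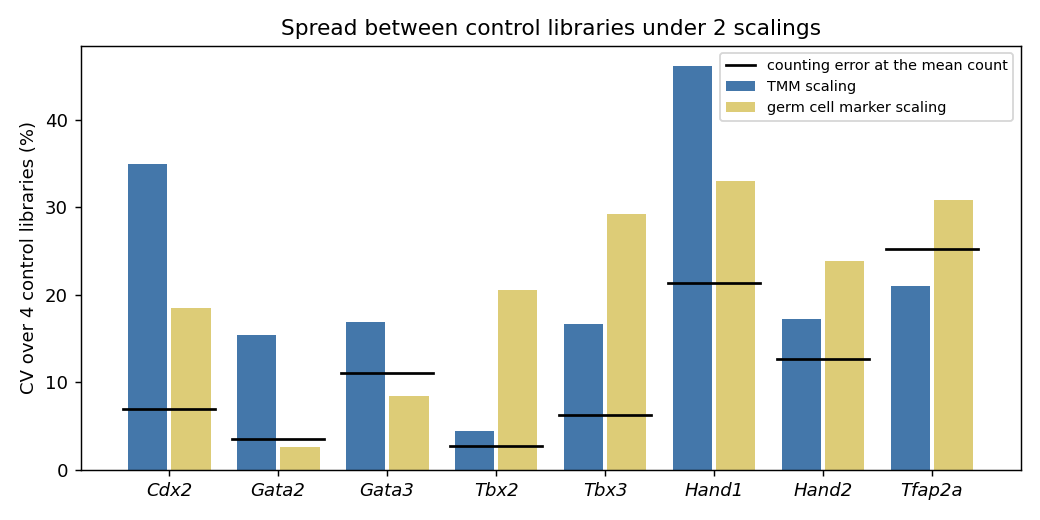
CV (%) over the 4 control libraries for the 8 factors compared, after TMM scaling (blue) and after scaling to germ cell markers (yellow), with black lines for the CV expected from counting error at the mean count. *Cdx2*, *Gata2*, *Gata3* and *Hand1* have the lower bar under the germ cell scaling, and the other 4 have the higher.

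Over the 8 libraries, the profiles most like that of *Cdx2*, by the root mean square difference of log2 CPM centred on the control mean, were those of *Insm1*, *Dlx3*, *Cubn*, *Ankrd63* and *Gabra5* (0.209 to 0.321). *Insm1*, a zinc-finger factor of endocrine and neural progenitors, went from 5.57 ± 1.07 to 1.18 ± 0.380 CPM (SD, n = 4). *Gata2* came 10th of 14248 genes at 0.463, *Tfap2a* 80th, *Hand1* 90th and *Gata3* 450th. The likeness includes the fall by which *Cdx2* was chosen, so it is a description, and with a prior count of 0.5 in place of 2 the nearest genes shared 4 of 5. *Ankrd63*, with 3 to 7 reads per cKO library, and *Gabra5*, with 3 to 5, reached 10 reads in no cKO library. Like *Tfap2a* and *Hand1*, they entered the comparison through the control libraries alone, so their nearness to *Cdx2* only describes the values.

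Relatives of the 10 factors in the CDX, GATA, T-box, AP-2 and DLX families numbered 28, of which 10 were compared. *Dlx3* and *Tbx1* were called lower, *Tbx4* was called higher and 7 were not called, with a median Log2FC of -0.25. The shares over all genes compared were 4.06% lower and 6.11% higher. *Tbx1*, a factor of pharyngeal mesoderm, fell from 3.89 ± 0.725 to 2.12 ± 0.661 CPM (SD, n = 4; Log2FC -0.81, FDR 0.0146). *Tfap2c*, an AP-2 factor of germ cells and trophoblast, was at 15.1 ± 4.93 CPM in control and 10.4 ± 1.87 CPM in cKO ovaries and missed the threshold (Log2FC -0.51, FDR 0.0527). DESeq2 called *Tfap2c* lower (FDR 0.0274), as did edgeR's likelihood ratio test, scaling by library size alone and the fit without a filter. It was also called lower without control library 1, control library 4 or cKO library 2. It was not called by limma-voom or under RLE or germ cell marker scaling. *Tfap2e*, below the filter, had 19 reads in all control and 2 in all cKO libraries.

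Further transcription factors of mesoderm and extraembryonic tissue gave no call on the lower side in the main comparison. Of 20 such genes 13 were compared, 0 were called lower by edgeR, DESeq2 or limma-voom, 2 were lower at an unadjusted p under 0.05, and *Ascl2*, a trophoblast factor, was called higher, from 1.28 ± 0.633 to 2.45 ± 0.404 CPM (Log2FC 1.00, FDR 0.0187), with overlapping groups. That call was lost without control library 4 (FDR 0.0755), without cKO library 4 (FDR 0.0690) and under germ cell marker scaling (FDR 0.0580). *Evx1* was below the filter, with 45 reads in all control and 10 in all cKO libraries. It was called lower with all libraries and no filter (Log2FC -2.02, FDR 0.00555). It also passed the filter and was called lower without control library 4 or without any 1 of the 4 cKO libraries (Log2FC -2.40 to -1.64). With 1 to 4 reads in each cKO library, it passed through the control libraries alone, so these calls only describe the gene. The 2 genes lower at an unadjusted p were *Prrx2* (Log2FC -0.33, FDR 0.0462) and *Osr1* (Log2FC -0.36, FDR 0.0480), whose fold missed the threshold. *Tcf21* stood at 76.3 ± 4.44 and 77.4 ± 5.96 CPM, and *Meis1* at 94.2 ± 7.59 and 90.7 ± 6.27 CPM. The median Log2FC of the 13 was -0.06, and 4.06% of all genes compared were called lower and 6.11% higher.

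Known targets of BMP signalling gave 5 genes called lower among 11 compared of 12 listed, and 0 called higher (0 also at an unadjusted p under 0.05 and by DESeq2 and limma-voom). These were the homeobox genes *Msx2* (17.8 ± 1.49 to 5.06 ± 0.794 CPM, Log2FC -1.81, FDR 1.54e-07) and *Msx1* (66.3 ± 7.07 to 28.9 ± 2.05 CPM, Log2FC -1.20, FDR 1.68e-07), the germ cell factor *Zglp1* (Log2FC -1.28, FDR 0.000726), and the inhibitors of differentiation *Id1* (Log2FC -0.86) and *Id4* (Log2FC -0.55). The call of *Id4* was lost without control library 2 (Log2FC -0.47) and under germ cell marker scaling (FDR 0.105), which leaves 4. Of all genes compared, 4.06% were called lower and 6.11% higher. The list was chosen with earlier results of these data known, and the authors had reported *Zglp1*, *Msx1* and *Msx2* as lower in this RNA-Seq. The count of calls therefore describes the listed genes only. For 8 of the 11 every cKO library lay below every control library, as for 11.7% of all genes compared. *Id3* and the inhibitory SMADs *Smad6* and *Smad7* were among these 8, with Log2FC of -0.34, -0.31 and -0.23, under the fold required. *Bambi*, a decoy receptor, was not called (Log2FC -0.04, FDR 0.765). Of 18 ligands, receptors and SMADs 16 were compared, 0 were called lower by edgeR, DESeq2 or limma-voom, and *Bmp7* was called higher, from 23.9 ± 2.03 to 35.4 ± 5.48 CPM (Log2FC 0.58, FDR 0.000734). *Bmp2*, the ovarian ligand, was lower by less than the fold required (52.6 ± 2.24 to 41.6 ± 4.22 CPM, Log2FC -0.35, FDR 0.00307). The receptors *Acvr2b* (Log2FC 0.47, FDR 1.70e-05) and *Acvr1* (Log2FC 0.26, FDR 0.00937) were higher by less than that fold. At an unadjusted p under 0.05, 5 of the 16 were lower and 6 higher, and every cKO library lay below every control library for 2 and above for 5. Genotypes did not overlap in either direction for 27.9% of all genes compared, and a share at the unadjusted p is not given here. The call of *Bmp7* was lost under germ cell marker scaling (FDR 0.114).

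Several of the 10 factors are also made in tissues that a fetal ovary pool could carry, and markers of these were examined beside them. Summed over 6 trophoblast markers, the level was 2.90 to 4.03 CPM in control and 3.66 to 4.37 CPM in cKO libraries, and *Prl3d1* was at 0 throughout. The 6 gut epithelium markers, beside *Cdx2*, summed to 6.63 to 12.0 CPM in control and 9.78 to 14.0 CPM in cKO libraries. Within them *Krt20* was called lower (6.41 ± 1.62 to 3.77 ± 0.775 CPM) and *Vil1* was called higher (0.750 ± 0.278 to 7.36 ± 1.48 CPM), the other 4 being below the filter. A sum of the 5 others without *Vil1* was taken after the values were seen. It was 6.12 to 10.9 CPM in control and 4.16 to 5.94 CPM in cKO libraries, with every cKO library lower. Most of it was *Krt20*, at 4.80 to 8.52 CPM in control and 3.14 to 4.84 CPM in cKO libraries. The mean was lower in cKO ovaries for 4 of the 5 and higher for *Lgals4*. The 5 endothelium markers, beside *Gata2*, summed to 258 to 303 CPM and 243 to 280 CPM, and 5 erythroid markers to 33.0 to 93.0 CPM and 40.2 to 70.5 CPM. The 7 autonomic neural crest markers, beside *Hand2*, *Gata3* and *Tfap2a*, summed higher in every cKO library than in any control library (2.34 to 2.71 CPM in control against 3.82 to 4.08 CPM in cKO libraries). The 4 macrophage markers were higher as well (22.8 to 27.6 against 30.5 to 37.6 CPM, 2 called). The 6 pregranulosa markers summed to 1214 to 1466 CPM in control and 1030 to 1234 CPM in cKO libraries, overlapping through cKO library 1 alone. *Foxl2* was called lower among them (118 ± 3.93 to 79.4 ± 7.30 CPM, Log2FC -0.57), 5 of the 6 were lower at an FDR under 0.05 and 4 had every cKO library below every control library, so this somatic list moved in the same direction as the factors that fell. Sums for stroma and epidermis overlapped between genotypes. Those for germ cells (579 to 780 and 613 to 973 CPM), surface epithelium and mesonephros overlapped through cKO library 1 alone. The remaining cKO libraries lay above every control library for germ cells, and below every control library for surface epithelium and mesonephros. Among the germ cell markers *Dazl* and *Dnd1* were called higher and *Mael* lower. *Lgr5* of the surface epithelium (FDR 0.00837) and *Ret* of the mesonephros (FDR 0.0442) were lower by less than the fold required. The part of these cell types in the differences of the 10 factors was not tested.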

How the data were processed

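RNA-Seq of E14.5 ovaries from 4 control and 4 *Bmpr1a*-cKO pools was used. The members and lists were chosen with earlier results of these data known. Libraries were strand-specific and paired-end. The authors trimmed reads with Trimmomatic 0.39, mapped them to mm10 with STAR 2.5.2 and deposited whole-number counts per gene for each library; the annotation and strand setting of the counting are not given in the sources used here. A deposited table of CPM was not used here.

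Genes were kept by filterByExpr (minimum count 10), scaled by TMM and compared with the quasi-likelihood test of edgeR 4.0.16 in R 4.3.3 (two-sided, Benjamini-Hochberg adjustment over 14249 genes), without covariates. Genes below the filter were not tested. For profiles of single libraries a prior count of 2 was added before log2. RPKM used exon lengths of GENCODE vM21 on mm10, which also gave positions and overlaps. DESeq2 1.42.0, limma-voom (limma 3.58.1), other scalings and filters and a replicate block were alternatives. Nothing says that pools shared no litter, so p-values measure the spread between these pools. Floors and counting errors cover counting error only.

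Named were all 10 factors, up to 5 called genes of each list with the largest change, the 5 profiles nearest to *Cdx2* and the nearest genes on each side of a factor that were compared; *Urad* and other genes of the lists were named after their values were seen. Same-numbered control and cKO libraries had correlated deviations of 0.198, 0.161, 0.108 and -0.0871, and those with unlike numbers ran from -0.198 to 0.182. These values do not settle whether the numbers are pairs, and the main comparison did not take them as pairs.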

Additional observations from a re-analysis of the deposited data

How the results depend on the processing

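No Log2FC of the 8 factors changed sign under any alternative or with any library left out. For *Cdx2* it ran from -2.38 to -2.25 over the alternatives and from -2.50 to -2.09 with each library left out. The count of factors called lower went from 4 to 2 with at least 10 reads in every library, since *Hand1* and *Tfap2a* were then not compared, and ran from 3 to 4 with each library left out. The FDR of *Tbx2* ran from 0.0304 to 0.756 over the alternatives and that of *Hand2* from 0.0782 to 0.561, with the fold under the threshold throughout.

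Scaled to germ cell markers, calls over all genes were 398 lower and 522 higher in place of 578 and 871, and the single genes called higher among the mesoderm factors and the pathway genes went to 0. With the FDR alone, calls were 1781 lower and 2461 higher, the BMP targets called lower rose to 8, the mesoderm factors called lower to 2, and the pathway genes to 2 lower and 5 higher. Without a filter, the relatives called lower rose to 5 and the mesoderm factors to 1 lower and 2 higher. With each library left out, relatives called lower ran from 2 to 4 (4 without control library 4), mesoderm factors called lower from 0 to 1 and higher from 0 to 1 (0 without control library 4 or cKO library 4), and pathway genes called lower from 0 to 1 (1 without cKO library 1 or 3). Mesoderm factors were 1 lower, *Evx1*, without control library 4 or any 1 of the 4 cKO libraries. *Evx1* then entered the comparison through its control libraries alone. BMP targets called lower ran from 4 to 5. Marker lists with sums apart went from 2 to 4 by library size alone and to 4 by RLE scaling. The cause of these moves was not tested.

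With the replicate number as a block, 582 genes were called lower and 875 higher, and no count of the factors or lists changed; not every library correlated best with its own number. Depth limits *Hand1*, *Tfap2a*, *Dlx5* and *Dlx6*, with under 10 reads in every cKO library.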
